A study of Mus musculus with 6 samples.

Results

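The 3 genes of glucocorticoid action, Nr3c1, Hsd11b1 and Klf15, were described in mouse epididymal white fat, out of 13409 genes with a named probe. They were picked by gene symbol, with their ratios in these data already known, so their own values are given as a description without a test. Each is represented by a single probe: 5632 for Nr3c1, 800 for Hsd11b1 and 13336 for Klf15.

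Male C57BL/6J mice aged 12 weeks were injected with CL-316,243 at 1 mg per kg body weight or with saline, and fat was taken 3 hr later. CL-316,243 is a selective agonist of the beta3-adrenergic receptor, the receptor through which sympathetic nerves drive fat breakdown in adipocytes. RNA from the 6 mice of each treatment was pooled, and the same 2 pools were hybridised to 6 two-colour spotted arrays, with the CL-316,243 pool in channel 1 on arrays 1, 2 and 3 and in channel 2 on arrays 4, 5 and 6. The arrays are therefore repeat measurements of 1 pair of pools: errors and p-values cover the spread between arrays and compare the 2 pools, and the spread between mice is unknown. In pooled tissue RNA, fewer cells of a type and less RNA per cell cannot be told apart.

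Glucocorticoids act on fat in several steps. Hsd11b1 sits in the endoplasmic reticulum and regenerates active corticosterone from its inert 11-keto form, so that fat cells can make hormone locally. Nr3c1 encodes the glucocorticoid receptor, a nuclear receptor held by Hsp90 and Hsp70 chaperones until hormone binds; it then enters the nucleus, induces some genes and represses others, many of them inflammatory. Klf15, a zinc finger transcription factor of the Kruppel-like family, is a known direct target of the receptor and is induced during adipocyte differentiation, where it acts on glucose uptake, lipid synthesis and amino acid breakdown.

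All values below are log2 ratios of the 2 pools as deposited, and the sources used here do not give which pool is the numerator. A gene is called higher where its ratio is above 0 and lower where it is below 0. The same pool was taken as the numerator on every array, whichever channel held it, which the sources used here do not state. Should saline be that numerator, all directions below are the opposite. A ratio taken by channel would instead need the sign turned on the arrays with the agonist pool in channel 1. With that sign turned, the fitted ratios were 0.075 for Nr3c1, 0.054 for Hsd11b1 and -0.14 for Klf15. Of 12 tested genes known to be induced by cAMP or beta3 agonists in fat, 11 had positive ratios, among them Dio2 (1.18 ± 0.19 SE), which activates thyroid hormone and did not pass the test described below without array 1 or 5 (1.16 and 1.2), and the mitochondrial coactivator Ppargc1a (0.77 ± 0.16), which passed only without array 3 (0.87) among the fits without 1 array. The limma test described below was passed by 4 of the 12 (33.3%, against 3.21% of all genes), all higher: Il6, Dio2, Ppargc1a and Junb, an AP-1 subunit (1.13 ± 0.22 on 4 arrays). Junb did not pass in the fit without array 4, where it has no value. The largest that missed the threshold were Fosl1, another AP-1 subunit (2.46 ± 0.81, with 7.64 on array 4 and 1.45 without it), and Crem, a cAMP-responsive modulator (1.05 ± 0.27). This list was drawn up with earlier results known and does not settle the numerator. The base of the logarithm is also not given; base 2 was assumed, and folds would be larger under a natural logarithm.

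Empty cells stood only at the ends of the columns, from 1 on array 6 to 724 on array 2, so rows did not match between arrays and each column was first placed on probe numbers by agreement with the other arrays. Between 66.9% (array 2) and 99.8% (array 6) of probes received a value. The Spearman correlation over probes was on average 0.28 between arrays of the same orientation and 0.11 between arrays of opposite orientation. Because the placement itself raises such agreement, it was repeated with the 3 genes' own values left out. Every one of the 18 positions, 6 arrays for each gene, stayed where it was, and so it did when the 10 probes on each side were left out as well. In the latter run the posterior probability of the position on array 2 dropped to 0.53 for Nr3c1 and 0.57 for Hsd11b1, and was at 0.99 or above elsewhere.

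Hsd11b1, which supplies active hormone, was lower on 4 of 5 arrays. Its log2 ratios were -1.07 and -0.72 on arrays 1 and 3, and -1.07, 0.11 and -1.41 on arrays 4, 5 and 6. Array 5 alone lay above 0, and the remaining 4 values lay between -1.41 and -0.72. Array 2 gave no kept value, since its best position, at -1.28, had a posterior of 0.89 against a minimum of 0.95. The fitted ratio was -0.84 ± 0.21 (SE, n = 5 arrays), or 1.79-fold lower, and 56 of the 13199 genes tested had a lower ratio. The gene was among the lowest 0.13% of genes on array 6 and within the lowest 2.73% on arrays 1, 3 and 4, but 64.7% of genes lay below it on array 5. Without array 5 the ratio was -1.07, and without array 6 it was -0.69.

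The position of the Hsd11b1 probe was less firmly fixed than those of the other genes. When the columns were placed by the size of the ratios without their signs, array 5 was read 1 row later (1.06), array 3 at another row (0.45), and arrays 2 and 4 gave no kept value. The fitted ratio was then -0.24. In the main placement the next probe was positive on all 5 arrays, between 0.53 on array 1 and 1.35 on array 4. Under the placement without signs, Nr3c1 and Klf15 also had no kept value on array 2. Their best rows there differed from those of the main placement (posterior 0.60 and 0.85), while their rows on the other arrays were the same. Their fitted ratios were then 1.80 and -1.33.

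The receptor gene Nr3c1 was higher on all 6 arrays. Its log2 ratios were 2.34, 2.71 and 0.72 on arrays 1, 2 and 3, and 2.44, 2.27 and 1.51 on arrays 4, 5 and 6. Array 3 was lowest and array 6 next, while the other 4 lay between 2.27 and 2.71, and the ranges of the orientations overlapped. The fitted ratio was 2.00 ± 0.24 (SE, n = 6 arrays), a 4.00-fold difference, and 17 of 13199 genes had a larger ratio. On arrays 1, 2, 4, 5 and 6 at most 0.45% of genes stood above it, and on array 3 4.74% did. Without array 3 the ratio was 2.30, and without array 2, the array with the fewest placed probes, 1.80.

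Klf15 was lower on all 6 arrays. Its log2 ratios were -1.60, -1.50 and -0.64 on arrays 1, 2 and 3, and -2.01, -2.02 and -0.58 on arrays 4, 5 and 6. Arrays 3 and 6 again stood nearest to 0, and the orientations overlapped. The fitted ratio was -1.39 ± 0.21 (SE, n = 6 arrays), or 2.62-fold lower, and 6 of 13199 genes had a lower ratio. Between 0.068% (array 5) and 5.98% (array 6) of genes lay below it on a single array. Without array 6 the ratio was -1.63, and without array 5 -1.27.

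**Figure D1:**
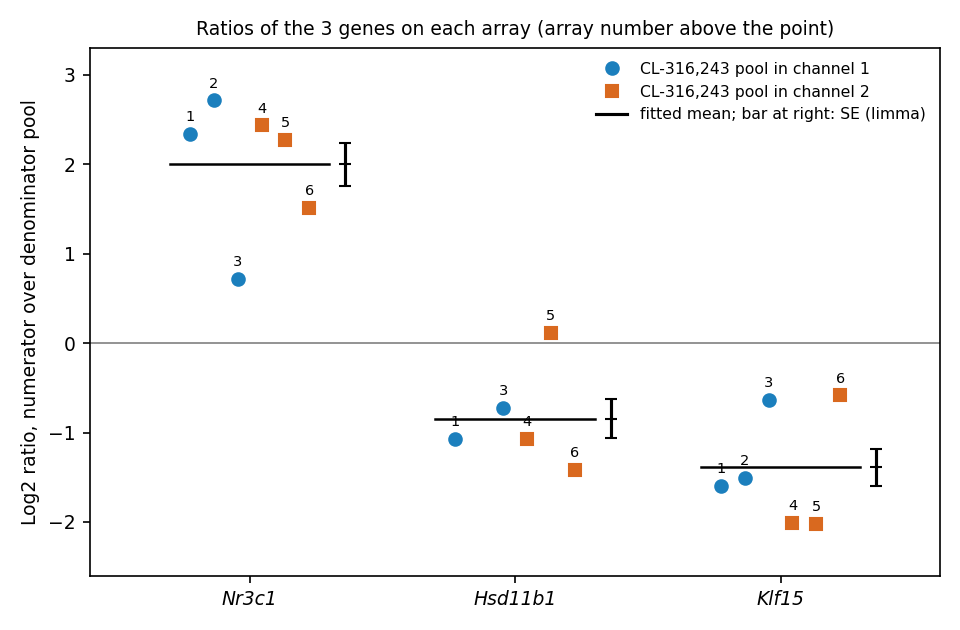
Log2 ratio (vertical axis) of Nr3c1, Hsd11b1 and Klf15 on each array; circles mark arrays with the CL-316,243 pool in channel 1 and squares those with it in channel 2, the black line is the fitted mean and the bar its SE. Nr3c1 lies above 0 on all 6 arrays (0.72 to 2.71), Klf15 below 0 on all 6 (-2.02 to -0.58), and Hsd11b1 below 0 on 4 of 5, with array 5 at 0.11.

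The receptor and Klf15 were farthest apart on array 4, where their ratios differed by 4.44, and closest on array 3 (1.35) and array 6 (2.09). Arrays 3 and 6 also had the smallest ratios over the other genes that passed the test: their median size in the direction of the call was 0.60 on array 3 and 0.66 on array 6, against 0.78 to 0.88 on the other 4. Whether this array-wide difference accounts for the spread of Nr3c1 and Klf15 was not tested. Dividing each array by its own spread (median absolute deviation) left the ratios at 1.98 for Nr3c1, -0.88 for Hsd11b1 and -1.39 for Klf15.

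The dye orientation, which had no part in choosing the genes, was tested as a term of the fit. Mean ratios with the CL-316,243 pool in channel 1 and in channel 2 were 1.92 and 2.07 for Nr3c1, -0.90 and -0.79 for Hsd11b1, and -1.25 and -1.54 for Klf15. As the fitted deviation of each orientation from their mean, the dye term was -0.075 ± 0.24 (SE), -0.054 ± 0.21 and 0.14 ± 0.21, and missed the threshold for each (limma adjusted p = 0.927, 0.943 and 0.816). The dye term passed for 0.0152% of all genes tested, while 1389 of the 13199 genes had an unadjusted p under 0.05 for it in limma. The columns were placed by agreement across both orientations, so the dye term is not independent of the placement.

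The values printed on the array next to each gene's probe are given as a description of its surroundings. The 3 genes were picked with their ratios known, so a distance from their neighbours is no support for the ratios. Around Klf15, itself at -1.39, the means of the 20 nearest probes lay between -0.30 and 0.25. Around Nr3c1, itself at 2.00, the means lay between -0.26 and 1.41, and the highest belonged to the probe of Ifrd1, 5 places on. Single neighbours lay above Nr3c1 on its 2 lowest arrays. On array 3 the probe 2 places before was at 2.42 and that of Ifrd1 at 1.91, against 0.72 for Nr3c1. On array 6 the Ifrd1 probe was at 2.12, against 1.51. Around Hsd11b1, itself at -0.84, the means spread from -0.64 to 1.26, wider than around Klf15. On array 1 the probes 3 and 4 places on (-1.19 and -1.52) lay below Hsd11b1 (-1.07).

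**Figure D2:**
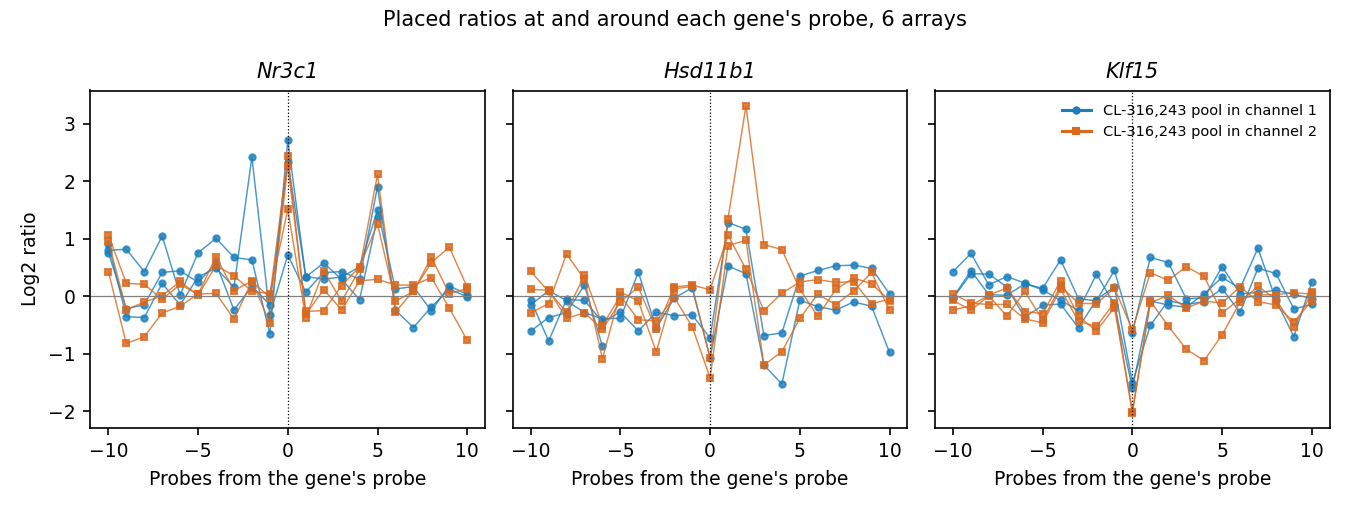
Placed log2 ratios (vertical axis) of the probe of each gene and of the 10 probes on each side of it (horizontal axis, in probes from the gene's probe), with a line for each array coloured by orientation. The Nr3c1 and Klf15 probes, picked with their ratios known, stand out from the neighbouring probes on most arrays. The Hsd11b1 probe is followed by a probe that is positive on all 5 arrays with a value.

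The upstream sequences of Hsd11b1 and Klf15, the pair that was lower, are shown so that motifs of the receptor and of cAMP signalling can be looked for in them. The motifs were chosen after the windows were seen. The 250 bases before the RefSeq start site are given on the gene's own strand in build GRCm38.p6, at chr1:193242361-193242610 (minus strand) for Hsd11b1 and chr6:90462326-90462575 (plus strand) for Klf15. Capitals mark matches to any of the searched motifs.
Hsd11b1: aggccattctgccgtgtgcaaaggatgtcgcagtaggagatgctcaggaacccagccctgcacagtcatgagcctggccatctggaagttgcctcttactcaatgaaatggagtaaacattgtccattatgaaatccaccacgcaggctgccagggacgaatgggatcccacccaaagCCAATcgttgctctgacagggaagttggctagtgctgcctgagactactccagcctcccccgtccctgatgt
Klf15: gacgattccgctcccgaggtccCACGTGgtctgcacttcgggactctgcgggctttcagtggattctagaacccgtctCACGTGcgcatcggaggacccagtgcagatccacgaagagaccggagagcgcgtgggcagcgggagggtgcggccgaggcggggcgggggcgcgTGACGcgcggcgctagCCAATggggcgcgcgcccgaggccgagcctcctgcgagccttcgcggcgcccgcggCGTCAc

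The motifs were searched on both strands. They were the glucocorticoid response element (AGAACA, any 3 bases, then TGTTCT), its hexamer TGTTCT, the E-box CACGTG bound by clock factors, the cAMP response element TGACGTCA, its core TGACG, which the full element contains, and the CCAAT box. The Klf15 window held the E-box at 228 and 172 bases before the start site, the core TGACG at 78 and, on the other strand, at 6, and a CCAAT box at 62. The Hsd11b1 window held only a CCAAT box, at 72 bases. Of all 32851 promoter windows of this length, 6.02% held the E-box, 17.8% the core TGACG, 33.8% the CCAAT box and 16.1% the hexamer TGTTCT. The full cAMP element was in 1.55%. Neither window held the glucocorticoid element, its hexamer or the full cAMP element. The full glucocorticoid element was in only 3 of all windows (0.00913%), so its absence from these 2 carries little information. The windows also differed in base composition, with 72.0% G and C for Klf15 and 54.4% for Hsd11b1, against a median of 52.4% over all windows. A match is a description of the letters only.

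To set the 3 genes beside the rest of the pathway, all 13199 genes with values on at least 4 arrays and in both orientations were tested with limma. The threshold was an adjusted p of 0.05, which 424 genes passed (3.21%). Of them 254 were higher (1.92% of those tested) and 170 lower (1.29%), and the median ratio of all genes was -0.012. Fewer passed without array 1 (149), array 4 (207) or array 5 (126). The columns were placed by agreement between arrays, signs included, and the test measures that agreement, so its p-values are not independent of the placement. The same holds for the counts of the lists and markers. Own values were left out of the placement only for the 3 genes and the probes near them. Placed by size without signs, 194 of 12587 genes passed, and with rows as deposited 0 did. An unadjusted p under 0.05 in limma was reached by 2442 of the 13199 genes, the background for such counts in the lists and markers. Gene lists were drawn up with earlier results of these data known, and each is described by its count and median beside these values. By size, 3.44% of genes differed by at least 1.5-fold with 1 sign on every array, 2.2% higher and 1.24% lower; Nr3c1 and Klf15 are among them, and Hsd11b1, positive on array 5, is not.

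Among 18 tested genes of glucocorticoid supply and steroid metabolism, 2 passed, Star and Akr1d1 (11.1%, against 3.21% of all genes). Star, which brings cholesterol into mitochondria for steroid synthesis, was higher at 0.73 ± 0.16 (6 of 6 arrays, adjusted p = 0.0455). Akr1d1, a reductase that inactivates glucocorticoids, was lower at -0.53 ± 0.11 (5 of 5 arrays, adjusted p = 0.0461). Both lie near the threshold: Star did not pass without array 1, 2, 4 or 5 (0.59 to 0.71), nor Akr1d1 without array 1, 3, 4, 5 or 6 (-0.58 to -0.48). Of those that did not pass, Hsd17b10 (-0.45 ± 0.17) and Hsd17b11 (-0.39 ± 0.18, and -0.21 without array 4) had the largest ratios. For their role, and after their values were seen, Hsd11b2 and H6pd are added: Hsd11b2, which inactivates the hormone, was at -0.30 ± 0.13 with 5 of 5 arrays negative (adjusted p = 0.250), and H6pd, which makes the NADPH that Hsd11b1 uses, at -0.06 ± 0.14 on 4 arrays (adjusted p = 0.867). The list's median was 0.0065, with 9 positive and 9 negative ratios.

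Of the receptor's chaperones, 4 of 17 passed, all higher (23.5%, against 3.21% of all genes). These were the Hsp70 family members Hspa4 (0.92 ± 0.12, adjusted p = 0.00403), Hspa8 (0.82 ± 0.12, adjusted p = 0.00800) and Hspa1b (0.51 ± 0.11), and Ptges3, the p23 cochaperone that stabilises the Hsp90 complex with the receptor (0.49 ± 0.11). All 4 were positive on all 6 arrays. Hspa4 passed in every fit without 1 array; Hspa8 did not without array 5 (0.78). Hspa1b passed only without array 3 (0.57) and Ptges3 only without array 2 (0.56). Of the members that missed the threshold, Bag1 was at 0.49 ± 0.21 (0.19 without array 3 and 0.79 without array 1). Fkbp5, an immunophilin that lowers the receptor's affinity for hormone and is itself a classical receptor target, was at -0.45 ± 0.14 (adjusted p = 0.129). Fkbp5 was positive on arrays 1 and 2 (0.12 and 0.06) and negative on arrays 3 to 6, down to -1.25. The list's median was 0.16.

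None of 20 receptor partners and coregulators passed in limma. An unadjusted p under 0.05 was found for 3 of the 20, against 2442 of all 13199 genes. Of the 20 ratios, 15 were negative, with a median of -0.16. The most negative were those of the coactivator Ncoa1 (-0.49 ± 0.14, negative on 5 of 5 arrays, adjusted p = 0.110) and the deacetylase Hdac1 (-0.37 ± 0.29), whose single values ran from -2.05 to 1.51 and whose ratio was 0.0051 without array 1 (-0.74 to -0.12 without array 3, 5 or 6). The mineralocorticoid receptor Nr3c2 has no named probe here.

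Among 42 tested genes that the activated receptor is known to induce in some tissue, 4 passed, all higher (9.52%, against 3.21% of all genes). The cell cycle inhibitor Cdkn1a was at 1.45 ± 0.27 on 5 arrays, with values of 1.30 and 1.39 on arrays 1 and 3 and 2.66, 1.60 and 0.40 on arrays 4, 5 and 6. The transcription factor Cebpd (0.76 ± 0.14) and the crosslinking enzyme Tgm2 (0.74 ± 0.16) were positive on all 5 arrays that measured them. Metallothionein Mt2 was at 0.73 ± 0.15, but its orientation means were 1.53 and -0.07, and arrays 4 and 5 were negative. Adjusted p-values of these 4 lay between 0.0298 and 0.0467. Each call was lost without at least 3 single arrays: Cdkn1a without array 1, 3 or 5 (1.47, 1.43 and 1.44), Cebpd without array 1, 4, 5 or 6 (0.56 to 0.79), Tgm2 without array 1, 2, 5 or 6 (0.60 to 0.77) and Mt2 without array 1, 3, 4, 5 or 6 (0.62 to 0.78). Without array 1 or array 5 none of the target genes passed in limma, without array 4 2 did and without array 6 1 did. In the fits without array 1 and array 5, 15 and 13 targets had an unadjusted p under 0.05. Over all genes 1879 of 12220 and 1706 of 12154 did.

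The median over the 42 genes was -0.06, with 18 positive and 24 negative ratios, or 57.1% negative against 52.3% of all genes tested. Those with the largest ratios that missed the threshold were Mstn, a growth inhibitor of muscle (-0.96 ± 0.29), and the lipase gene Lpl (0.76 ± 0.23). Mstn was at -3.06 on array 2 and -0.56 without it, and passed without array 3 (-1.23). Lpl was at 2.29 on array 3 and 0.46 without it. Other textbook targets are given for their role, after their values were seen, and none passed. Tsc22d3, the leucine zipper Gilz, was at -0.15 ± 0.19, the phosphatase Dusp1 at -0.05 ± 0.14 and the transcriptional repressor Zbtb16 at -0.12 ± 0.14. The kinase Sgk1 was at 0.32 ± 0.13 with 5 of 5 arrays positive (adjusted p = 0.238), and Per2, a clock gene, at -0.07 ± 0.12. Larger were Ddit4, an inhibitor of mTORC1 (0.47 ± 0.12, positive on 6 of 6 arrays, adjusted p = 0.0689), the decoy receptor Il1r2 (0.48 ± 0.12, positive on 5 of 5 arrays, adjusted p = 0.0820) and Errfi1, an inhibitor of EGF receptor signalling (0.59 ± 0.23, and 0.34 without array 2). Per1 was not tested, for lack of placed values.

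Among 20 tested genes that glucocorticoids are known to repress in some tissue, 4 passed, all higher (20.0%, against 3.21% of all genes). These were the chemokines Cxcl1 (2.50 ± 0.23), Ccl2 (2.12 ± 0.33) and Ccl7 (2.11 ± 0.19), which recruit neutrophils and monocytes, and the cytokine Il6 (1.77 ± 0.19). Ccl2 did not pass without array 1 or 5 (1.57 and 2.01); the other 3 passed in every fit without 1 array. Ptgs2, the inducible cyclooxygenase (0.59 ± 0.20, and 0.38 without array 1), and Mmp9 (0.44 ± 0.12) had the largest ratios that missed the threshold. Tnf, given for its role after its value was seen, was at -0.27 ± 0.11 and negative on 6 of 6 arrays. The median of the list was 0.10, with 12 positive and 8 negative ratios.

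None of the 15 other Kruppel-like and Sp factors tested passed in limma, and their median was -0.0068. An unadjusted p under 0.05 was found for 2 of the 15, against 2442 of all 13199 genes. Klf4, which acts early in adipogenesis, came nearest (0.56 ± 0.13, positive on 5 of 5 arrays, adjusted p = 0.0614), and Klf7 was at 0.36 ± 0.20, with 1.81 on array 4 and a ratio of 0.12 without that array. Klf9, another receptor target, was at -0.0068 ± 0.12, named for its role after its value was seen. The ratio of Klf15, at -1.39, lay outside the range of these 15 genes (-0.25 to 0.56); no test of that difference was made, since Klf15 was chosen by its ratio.

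Of 30 genes of amino acid breakdown, a known field of Klf15, 1 passed (3.33%, near the 3.21% of all genes). This was Got1, the cytosolic aspartate aminotransferase, which was higher (1.16 ± 0.20, 6 of 6 arrays, adjusted p = 0.0155) but not without array 1 or 5 (1.11 and 1.15). The largest that did not pass were Tdo2 and Glud1. Tdo2, tryptophan dioxygenase, was at -0.80 ± 0.56, but array 2 alone was at -4.79, and without it the ratio was 0.037. Glud1, glutamate dehydrogenase, was at -0.52 ± 0.13 (negative on 6 of 6 arrays, adjusted p = 0.0622). The known Klf15 targets Prodh, Bcat2 and Gpt were at -0.12 ± 0.14, 0.11 ± 0.12 and 0.20 ± 0.12, named for their role after their values were seen. The median was -0.05.

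Among 20 known metabolic targets of Klf15, 1 passed and was lower (5.0%, against 3.21% of all genes). This was Srebf1, the transcription factor of fatty acid synthesis (-0.87 ± 0.12, limma adjusted p = 0.00701). It was negative on 5 of 5 arrays, with values of -0.42 and -0.59 on arrays 1 and 2 and -1.12, -1.39 and -1.20 on arrays 4, 5 and 6, and it passed in every fit without 1 array. The largest that missed the threshold were the glycolytic enzyme Aldoa (0.97 ± 0.35) and the adipogenic factor Cebpa (0.53 ± 0.20). Both were highest on array 3, at 3.49 and 1.81, and without it were at 0.47 and 0.28. Slc2a4, the insulin-responsive glucose transporter, was at -0.14 ± 0.11 and Pparg, the master regulator of adipocytes, at -0.47 ± 0.11 (negative on 5 of 5 arrays, adjusted p = 0.0653), both named for their role after their values were seen. The list's median was -0.04.

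**Figure D3:**
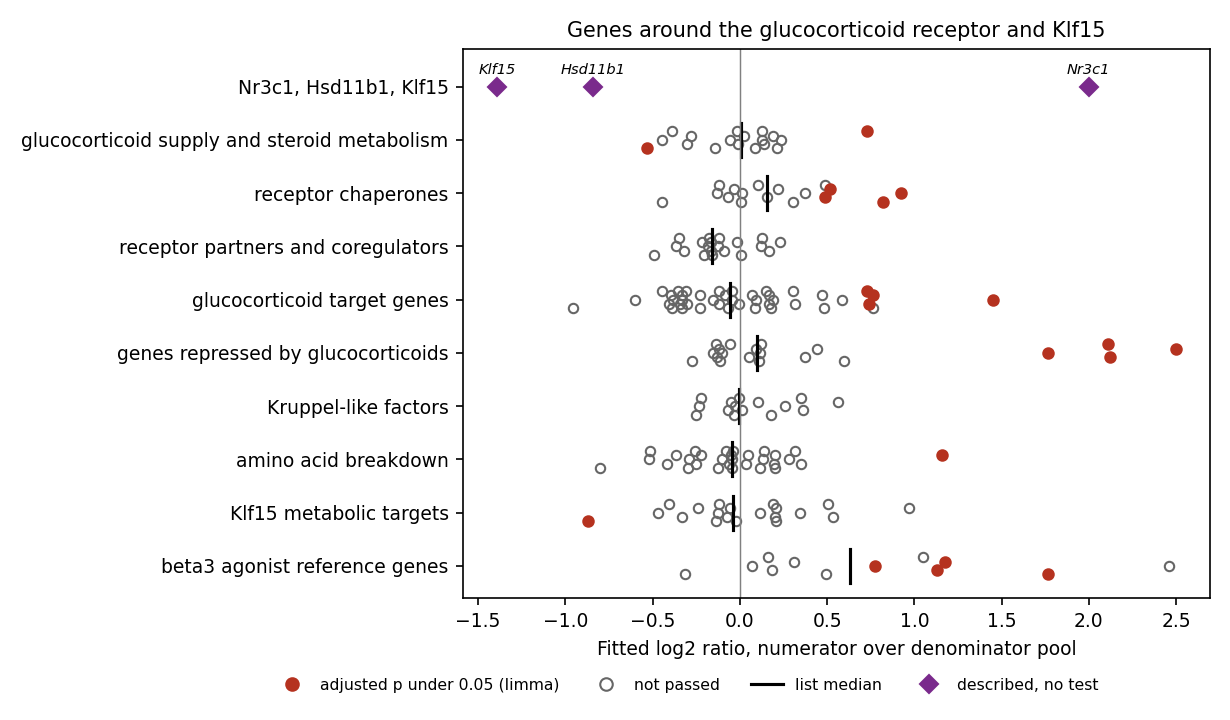
Fitted log2 ratios (horizontal axis) of the 3 genes (diamonds, no test) and of every tested gene of each list (circles; filled where the limma adjusted p is under 0.05), with the list median as a black bar. The 4 filled circles of the receptor chaperones, of the receptor's target genes and of the genes it represses all lie above 0, while the medians of these lists lie between -0.06 and 0.16.

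The genes whose ratios lay closest to each of the 3 genes over the arrays were found by the root mean square difference. Over 6 arrays and 8086 genes, Tnfsf14, a TNF family ligand, was closest to Nr3c1 (0.28), followed by Coq10b (0.35), a coenzyme Q binding protein, and Fam110c (0.41). Each of these also had its lowest values on arrays 3 and 6. For Klf15 they were Svs4, a seminal vesicle secretory gene (0.39), Trp53inp1, a p53-inducible gene (0.42), and Chst1, a carbohydrate sulfotransferase (0.45). For Hsd11b1, over 5 arrays and 11732 genes, they were Smox, a polyamine oxidase (0.35), Mrpl27, a protein of the mitochondrial ribosome (0.38), and Nsmce4a, a subunit of the Smc5/6 complex (0.39). The likeness is one of repeated measurements of the same pools.

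Among the marker lists, only that of seminal vesicle and epididymis had most of its tested genes pass. No other marker list had more than 2 passing genes, beside 3.21% of all genes. A passing gene on those lists describes that gene and not its tissue. Log ratios hold no level, so the label of the tissue could not be checked against the abundance of fat cell markers; of 9 tested adipocyte markers, 1 passed, Aqp7 (-0.51 ± 0.10), and 6 had an unadjusted p under 0.05. Their ratios ran from -0.51 to 1.17, with 6 positive, 3 negative and a median of 0.34. Of 7 tested markers of seminal vesicle and epididymis, 5 passed and all were lower: Svs5 (-5.47 ± 0.48), Svs2 (-4.98 ± 0.41), Pate4 (-2.73 ± 0.40), Svs6 (-2.30 ± 0.25) and Svs4 (-1.16 ± 0.24), whereas Adam7 and Lcn5 of the epididymis were at 0.15 and 0.19. Klf15 and Hsd11b1 were lower in the same pool, and the part of this tissue in their ratios was not tested. Among 7 tested muscle markers Acta2 (0.70 ± 0.11) and Des (0.90 ± 0.12) passed and were higher. The 7 muscle ratios were 5 positive and 2 negative, with a median of 0.063. Tek of 7 endothelial markers passed and was lower (-0.59 ± 0.12), while 2 of the 7 ratios were positive and 5 negative, with a median of -0.13. Krt18 of 4 mesothelial markers passed and was higher (0.69 ± 0.15). The other mesothelial markers were Krt8, the keratin that pairs with Krt18, at -0.35, Krt19 at -0.018 and Msln at 0.14, and the median of the 4 was 0.06. In limma none of 8 macrophage, 8 lymphocyte, 9 fibroblast and 2 red blood cell markers passed; 1, 1, 2 and 1 of them had an unadjusted p under 0.05. Svs2, Svs5, Svs6 and Pate4 passed in every fit without 1 array. Acta2 did not without array 5 (0.69), Des without array 1 (0.80), Svs4 without array 1, 2, 4 or 5 (-1.2 to -0.97), and Aqp7, Tek and Krt18 passed only without array 3 (-0.56, -0.66 and 0.86). Of 6 brown fat markers, Dio2 passed and all 6 ratios were positive.

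**Figure D4:**
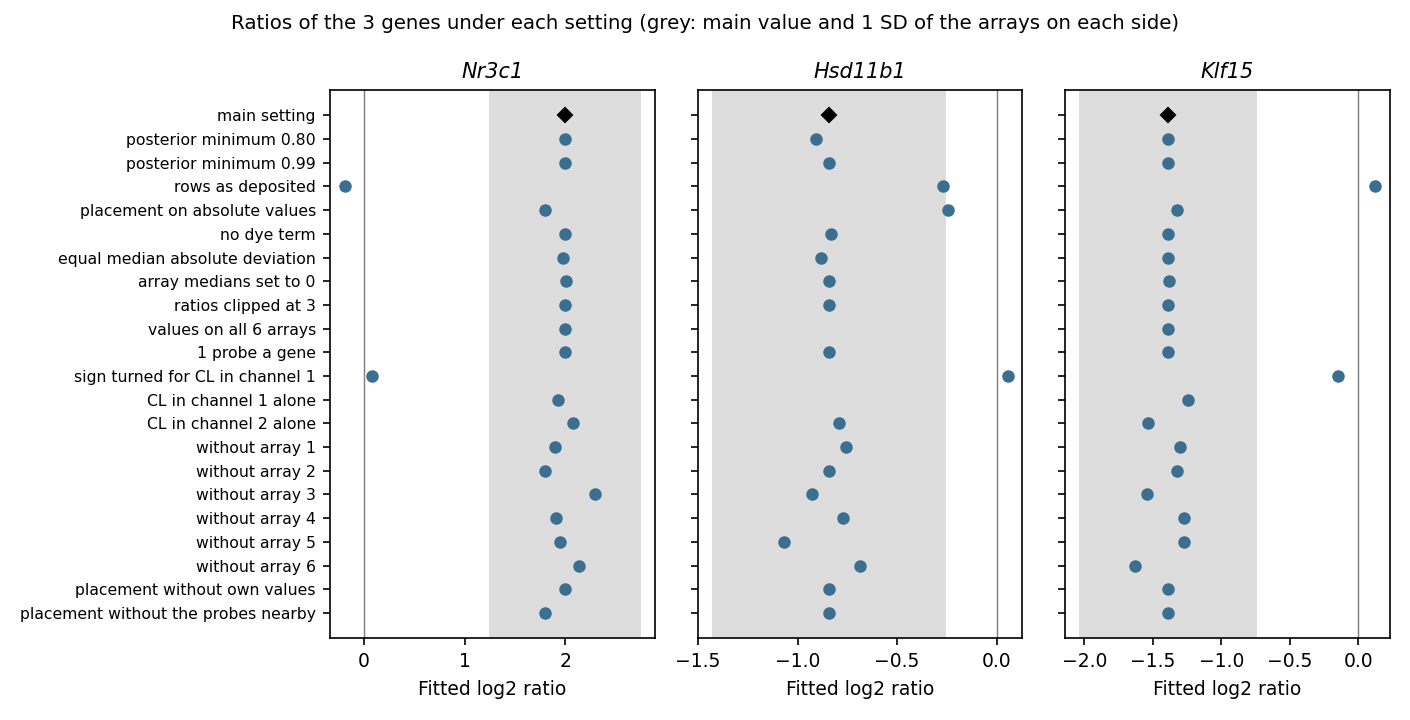
Fitted log2 ratios (horizontal axis) of Nr3c1, Hsd11b1 and Klf15 under the main setting (diamond) and each alternative (circles), with the main value and 1 SD of the arrays on each side in grey. Without any single array the ratios stay between 1.80 and 2.30, -1.07 and -0.69, and -1.63 and -1.27. Reading rows as deposited and turning the sign of 1 orientation move Nr3c1 and Klf15 to near 0, and Hsd11b1 to -0.27 and 0.054. The turned values are the dye terms with the sign reversed.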

How the data were processed

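Gene expression was measured in 2 RNA pools on 6 two-colour arrays, 3 per dye orientation. Per the labels' protocols, arrays were scanned and quantified with QuantArray, and the authors applied a uniform scale factor between dyes and LOWESS; the deposited values are log ratios, taken as log2. The sources used here name neither the numerator nor a background correction or spot filter.

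The 3 genes and all gene lists were chosen with earlier results of these data known. Columns, empty only at their ends, were placed on 19200 probe numbers by a hidden Markov model that allows lost spots only (ranks as normal scores, limited to 3 in size; 3 rounds; a loss continued with probability 0.5), and values with a posterior of at least 0.95 were kept. Of 14717 annotated probes, 14711 have 1 symbol, 6 have several and were not named, and another 4483 probes carry no name here; 14416 were found in RefSeq by Entrez identifier, and 0 symbols changed. A gene's probes were averaged. Limma 3.58.1 (R 4.3.3) fitted the mean ratio and the dye orientation, with Benjamini-Hochberg adjustment over 13199 genes; SEs are limma's. Placement and fit were tested on simulated data. Named are the 3 genes, up to 6 passing genes and the 2 largest others of each pathway list, passing markers and the 3 nearest patterns; others are said to be named for their role, or complete a marker list or a probe's surroundings. Each slide has its own lot, so lot and array cannot be told apart. Promoters are from RefSeq.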

Additional observations from a re-analysis of the deposited data

How the results depend on the processing

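In the fits without 1 array the ratios of Nr3c1, Hsd11b1 and Klf15 ran from 1.80 to 2.30, from -1.07 to -0.69 and from -1.63 to -1.27. Nr3c1 and Klf15 had 1 sign on all 6 arrays, so no fit of this kind could turn their direction. In these fits 126 to 393 genes passed over all genes, 0 to 3 of the receptor's target genes and 5 to 13 of the genes on the other lists, against 424, 4 and 15 with all arrays. The lists lost most without array 1 (6), array 4 (9) or array 5 (5). With rows as deposited, Nr3c1 was at -0.19, Hsd11b1 at -0.27 and Klf15 at 0.12. In limma no gene passed in that reading (0 over all genes, 0 targets and 0 on the other lists). An unadjusted p under 0.05 was found there for 489, 5 and 7. With the sign turned on the arrays that hold CL-316,243 in channel 1, the ratios were 0.075 for Nr3c1, 0.054 for Hsd11b1 and -0.14 for Klf15, and 2, 0 and 0 genes passed in limma (1389, 6 and 17 at an unadjusted p under 0.05). Turning the sign exchanges the mean ratio and the dye term, so these values repeat the dye terms above with the sign reversed. Placement on absolute values gave Nr3c1 1.80, Hsd11b1 -0.24 and Klf15 -1.33, and 194, 2 and 9 genes passed. With values on all 6 arrays 1 target gene passed and Hsd11b1 was not tested. The 3 arrays with CL-316,243 in channel 1 alone gave 21, 0 and 0 genes in limma (1118, 5 and 20 at an unadjusted p under 0.05), without a fit of Hsd11b1, and those with it in channel 2 alone 209, 1 and 7. Placement without the 3 genes' own values or the 10 probes on each side, chosen after seeing the data, left Hsd11b1 and Klf15 at -0.84 and -1.39 and Nr3c1 at 2.00 and, without the probes nearby, which cost its value on array 2, at 1.80. The cause of these changes was not tested where the alternative's own construction does not show it. No signal intensities were used, so the signal behind each ratio is unknown.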
